A study of Mus musculus with 8 samples.

Results

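The genes described here are those of the unfolded protein response and the integrated stress response in 3T3-L1 adipocytes, with and without knockdown of ERK3. They were taken as 40 named genes, matched by gene symbol to the rows of a table of 18088 genes. A row was found for 39 of them, and all 39 were tested. Derl3, a member of the derlin family of the endoplasmic reticulum (ER) membrane, has no values here and enters only the promoter search. The members fall into 5 roles: 7 stress sensors, their mediator Xbp1 and eIF2α phosphatase subunits, 4 stress transcription factors, 9 target genes of the transcription factor ATF4, 14 ER chaperones and folding enzymes, and 6 genes of ER-associated degradation.

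3T3-L1 is a mouse cell line of preadipocytes that can be differentiated into fat cells. Differentiated cells, labelled wildtype, were transfected in suspension with siRNA smart pools at 1.25 nM per cm2, either against Erk3 (siERK3) or with a nontargeting sequence (siNTC), and used 48 h later. Poly(A) RNA was sequenced in 4 libraries per group, and the comparison asks which transcripts differ when Erk3 is silenced. No source states that the libraries came from separate cultures, and each p-value below reflects just the scatter among these libraries, which may be technical. One siRNA pool was used against Erk3, so the loss of ERK3 and other effects of that pool cannot be told apart.

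Proteins that fold poorly in the ER engage 3 sensors. PERK (Eif2ak3) phosphorylates the translation factor eIF2α, IRE1 (Ern1) splices the mRNA of Xbp1, and ATF6 is cleaved to release a transcription factor. XBP1 and ATF6 raise chaperones and the machinery that removes misfolded proteins for degradation, while phosphorylated eIF2α favours translation of ATF4. ATF4 is also reached without the ER, through other eIF2α kinases such as GCN2 (Eif2ak4), which responds to amino acid shortage, and it drives genes of amino acid transport and synthesis. Adipocytes secrete large amounts of protein, adiponectin among them, and XBP1 is known to take part in fat cell differentiation.

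Short DNA elements are tied to these branches, and the promoters that carry them are shown because the roles are compared below. ATF4 with a partner binds the element called CARE, searched here as TGATGNAA, and ATF6 binds the ER stress element, ERSE, searched as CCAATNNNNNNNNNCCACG. Both strands of the 250 bases before each RefSeq gene start (GRCm38.p6) were searched. RefSeq starts were matched for 35 of the 40 members, and Hyou1, Manf, Derl1, Atf6 and Ppp1r15b were not matched. CARE letters occurred in 3.45% of all 32851 windows and in 6 members. Those were 4 of the 9 ATF4 targets, 1 stress transcription factor and 1 gene of ER-associated degradation, so the letters did not separate the roles fully. ERSE letters occurred in 0.113% of windows and in 9 members. The first set below holds CARE matches. It covers genes that rose (Slc7a11, Chac1, Atf3), a gene that fell (Asns) and a gene that was not called (Herpud1). Capitals mark the match, each stretch is written on the strand of its gene, and the stretch of Asns is shorter because it meets an annotated exon.
Slc7a11, chr3:50443632-50443719, minus strand: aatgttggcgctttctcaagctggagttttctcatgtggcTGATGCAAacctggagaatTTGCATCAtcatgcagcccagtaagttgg
Chac1, chr2:119351009-119351096, plus strand: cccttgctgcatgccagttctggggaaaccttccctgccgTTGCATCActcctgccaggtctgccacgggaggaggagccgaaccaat
Atf3, chr1:191183396-191183483, minus strand: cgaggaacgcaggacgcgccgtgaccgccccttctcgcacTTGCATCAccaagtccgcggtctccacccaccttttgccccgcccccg
Asns, chr6:7693214-7693243, minus strand: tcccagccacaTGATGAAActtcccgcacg
Herpud1, chr8:94386277-94386364, plus strand: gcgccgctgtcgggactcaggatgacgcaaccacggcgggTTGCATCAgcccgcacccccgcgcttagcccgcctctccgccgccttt

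The ERSE matches of 5 ER genes follow. Hspa5 and Calr rose, and Canx, Creld2 and Syvn1 were not called. The match of Hspa5 lies within an annotated exon, so its stretch is shorter. Slc7a11 held 2 CARE matches, on opposite strands and close to each other. Matches are given by letters alone and are not binding sites.
Hspa5, chr2:34772020-34772048, plus strand: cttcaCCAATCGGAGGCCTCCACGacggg
Calr, chr8:84847035-84847133, minus strand: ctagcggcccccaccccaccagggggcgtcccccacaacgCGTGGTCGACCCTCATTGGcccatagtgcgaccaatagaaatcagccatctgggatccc
Canx, chr11:50325760-50325858, minus strand: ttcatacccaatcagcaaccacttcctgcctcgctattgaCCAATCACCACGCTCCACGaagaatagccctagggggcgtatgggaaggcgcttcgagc
Creld2, chr15:88819480-88819578, plus strand: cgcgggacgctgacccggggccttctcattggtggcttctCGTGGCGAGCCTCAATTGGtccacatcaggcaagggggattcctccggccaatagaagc
Syvn1, chr19:6046492-6046575, plus strand: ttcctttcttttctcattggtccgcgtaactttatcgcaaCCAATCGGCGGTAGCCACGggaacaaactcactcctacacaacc

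The libraries held 9854522 to 9943572 counts each. Count values below, in CPM (counts scaled to a common library total), use the trimmed mean of M values (TMM), which is the normalization of edgeR, and the log2 fold change is siERK3 over siNTC. Mapk6, the gene of ERK3, fell from 579 ± 18.1 to 69.6 ± 4.80 CPM (mean ± SD of 4 libraries each; log2 fold change -3.06, edgeR adjusted p = 2.09e-22). All 8 adipocyte markers were lower in siERK3, with a summed level of 29588 to 31892 CPM in siNTC and 17041 to 18141 CPM in siERK3. Markers of preadipocytes and fibroblasts summed to 1598 to 1758 CPM in siNTC and 1531 to 1610 CPM in siERK3, with 6 of 7 measured lower and Ly6a higher. Ly6a went from 3.47 ± 0.576 to 307 ± 11.4 CPM, so the sum hides the fall of the other 6. Their log2 fold changes ran from -2.73 (Dlk1) to -0.30 (Col3a1). Macrophage markers summed to 9.89 to 14.5 and 20.4 to 25.0 CPM (2 of 3 measured higher; Adgre1, Ptprc and Mrc1 had no row), and the only endothelial marker with a row, Pecam1, lay between 0.516 and 1.58 CPM. The part of these shifts in the results below was not tested. In bulk RNA, fewer cells of a type and less RNA per cell cannot be told apart.

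Of the 39 stress response genes, 17 were higher and 9 lower in siERK3, and 13 were not called (edgeR quasi-likelihood test, Benjamini-Hochberg adjusted p under 0.05 over 17972 genes). Over all genes tested, 48.7% were called, 24.9% higher and 23.8% lower, so a call alone sets few genes apart in this comparison. The 4 siNTC and 4 siERK3 libraries did not overlap for 24 members, against 43.2% of all genes. The median log2 fold change of the members was 0.06 and its median size 0.22, beside 0.00 and 0.25 over all genes. By role, the transcription factors had a median of 0.50, the chaperones 0.18, ER-associated degradation 0.04, the ATF4 targets -0.01 and the sensors and phosphatase subunits -0.11. The split depended on scaling: with upper-quartile factors 13 members were higher and 11 lower (3556 and 5394 of all genes), and with library sizes only 19 and 6 (5849 and 3139 of all genes). The median of the members was then -0.01 and 0.14, and that of the ATF4 targets -0.08 and 0.08, and that of ER-associated degradation -0.03 and 0.12, so none of these 3 medians has a direction that holds under every scaling.

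**Figure D1:**
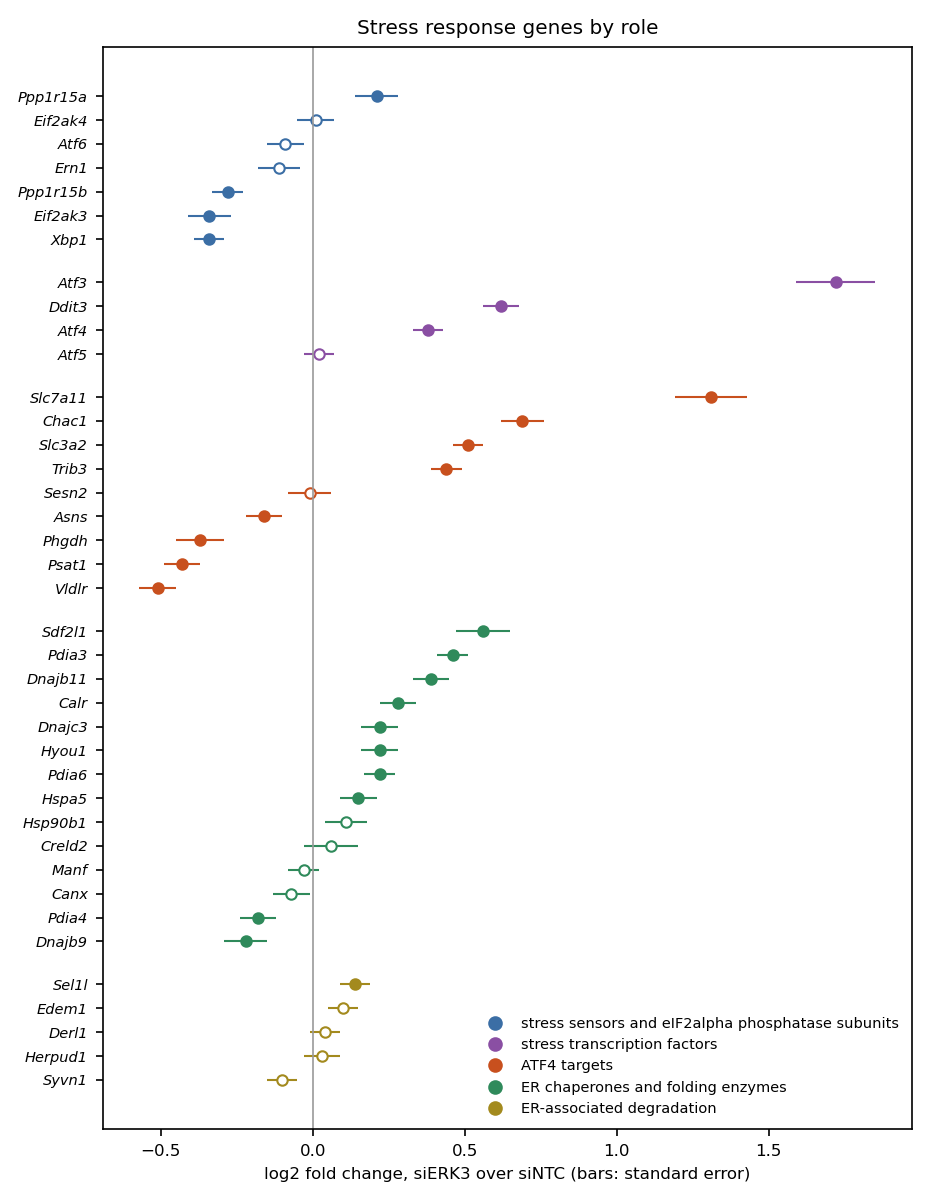
Log2 fold change, siERK3 over siNTC, of the 39 measured stress response genes, ordered within each role (points: edgeR estimate; bars: standard error; filled points: adjusted p under 0.05). The ATF4 targets run from -0.51 (Vldlr) to 1.31 (Slc7a11), while the 5 ER-associated degradation genes lie between -0.10 and 0.14.

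Among the stress transcription factors, Atf3, Ddit3 and Atf4 rose and Atf5 did not pass the test. Atf3, a factor induced early by many stresses, had 3.44, 4.96, 4.49 and 4.42 CPM in the siNTC libraries and 14.1, 16.9, 13.5 and 12.7 CPM in the siERK3 libraries. All siERK3 libraries were above all siNTC libraries, and the 3.30-fold increase (log2 fold change 1.72, SE 0.13, edgeR adjusted p = 1.92e-10) was the largest among the members. Its level was low, with 33 to 171 counts per library. Ddit3, which encodes CHOP, a factor linked to cell death under lasting stress, had 47.9, 53.0, 49.9 and 51.5 CPM in siNTC and 83.3, 71.7, 79.6 and 75.9 CPM in siERK3. The groups did not overlap and the log2 fold change was 0.62 (SE 0.06, edgeR adjusted p = 8.57e-09). Ddit3 shares 68 bases with Mars on the other strand, and strand was not kept in these libraries. The log2 fold change of Mars itself was -0.05 and was not called.

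Atf4 mRNA was at 129, 128, 137 and 129 CPM in siNTC and at 167, 180, 169 and 167 CPM in siERK3. It was thus higher in every siERK3 library, by 1.30-fold (log2 fold change 0.38, SE 0.05, edgeR adjusted p = 1.25e-06). ATF4 is controlled mainly by translation, which these data do not measure. Atf5, a relative of ATF4 that is controlled in a similar way, had 132, 134, 122 and 131 CPM in siNTC and 126, 130, 136 and 135 CPM in siERK3, and the groups overlapped (log2 fold change 0.02, SE 0.05).

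The 9 ATF4 targets moved in opposite directions, with 4 higher, 4 lower and 1 not called (88.9% called, beside 48.7% of all genes tested). The 4 that rose were Slc7a11, Chac1, Slc3a2 and Trib3. Slc7a11 and Slc3a2 encode the subunits of the cystine-glutamate exchanger. Slc7a11 had 7.92, 6.71, 7.51 and 7.99 CPM in siNTC and 14.9, 21.0, 18.3 and 20.6 CPM in siERK3. Its increase was 2.48-fold (log2 fold change 1.31, SE 0.12, edgeR adjusted p = 2.49e-09), and its groups did not overlap. Slc3a2, the heavy chain shared with other amino acid exchangers, had 99.6, 101, 104 and 101 CPM in siNTC and 145, 150, 142 and 142 CPM in siERK3. The step was 1.43-fold (log2 fold change 0.51, SE 0.05, edgeR adjusted p = 9.48e-09) with little spread in either group.

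Chac1, a glutathione-degrading enzyme, was at 30.3, 34.0, 34.5 and 26.0 CPM in siNTC and at 51.5, 51.7, 50 and 48.4 CPM in siERK3. The siNTC libraries were more scattered than the siERK3 libraries, yet every siERK3 library was higher (log2 fold change 0.69, SE 0.07, edgeR adjusted p = 4.73e-08). Trib3, a pseudokinase that binds AKT and acts back on ATF4, had 107, 107, 112 and 110 CPM in siNTC and 146, 158, 141 and 149 CPM in siERK3 (log2 fold change 0.44, SE 0.05, edgeR adjusted p = 2.14e-07).

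The 4 lower targets were Vldlr, a lipoprotein receptor, Psat1 and Phgdh, which are enzymes of serine synthesis, and Asns, asparagine synthetase. Vldlr was at 264, 258, 234 and 249 CPM in siNTC and at 171, 182, 164 and 190 CPM in siERK3, with no overlap. It was 1.42-fold lower (log2 fold change -0.51, SE 0.06, edgeR adjusted p = 8.40e-08). Psat1 had 384, 354, 433 and 414 CPM in siNTC and 279, 319, 287 and 288 CPM in siERK3, and its groups did not overlap either (log2 fold change -0.43, SE 0.06, edgeR adjusted p = 2.76e-06).

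Phgdh went from 37.8 ± 3.95 to 29.3 ± 1.87 CPM (mean ± SD of 4 libraries each; log2 fold change -0.37, edgeR adjusted p = 3.59e-04). That value is uncertain, because 47.8% of its 50-base stretches also occur in other genes, and its pseudogene Gm7901 had a log2 fold change of -0.47. Asns had 194, 159, 198 and 189 CPM in siNTC and 160, 176, 162 and 164 CPM in siERK3. Its siNTC replicate 2 was below every siERK3 library, so the groups overlapped. The log2 fold change of Asns was -0.16 (SE 0.06, edgeR adjusted p = 0.0391), and the call was lost in 7 of 16 alternatives, where the adjusted p reached 0.340. Sesn2, a sestrin that restrains mTORC1, had 42.9, 50.2, 49.6 and 43.8 CPM in siNTC and 41.5, 48.0, 50.2 and 46.2 CPM in siERK3, with overlapping groups (log2 fold change -0.01, SE 0.07).

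**Figure D2:**
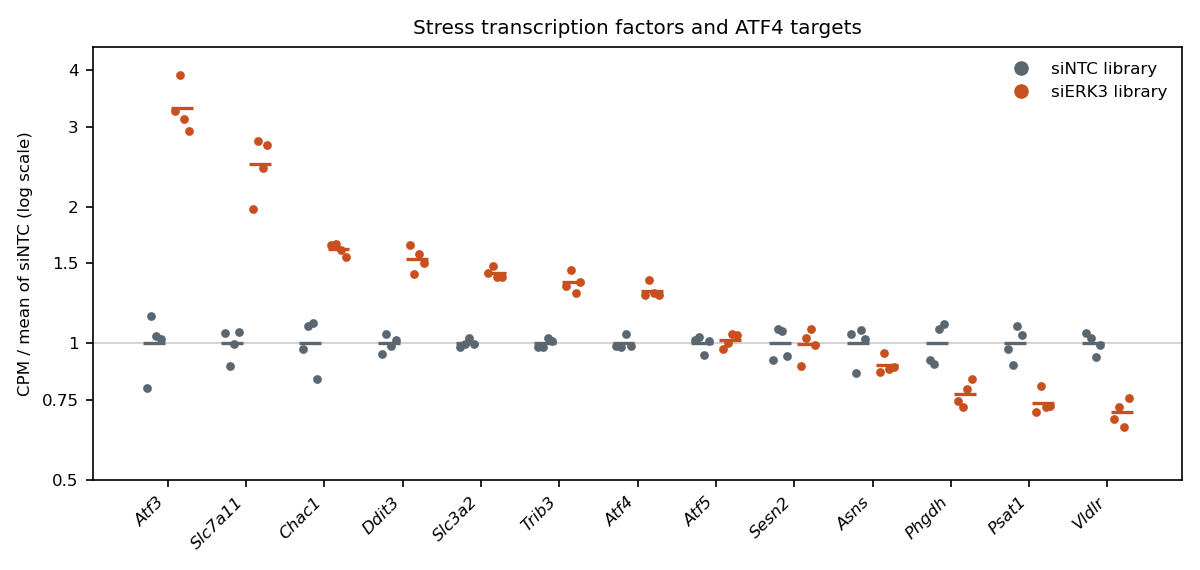
CPM of each library relative to the siNTC mean (log scale), for the stress transcription factors and ATF4 targets (points: libraries; short lines: group means; grey: siNTC; orange: siERK3). Atf3 and Slc7a11 stand highest in siERK3, and Vldlr, Psat1 and Phgdh lie below every siNTC library.

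Promoter letters and direction can be set side by side. Of the 6 members with CARE letters, all were tested: 3 were higher, 2 lower and 1 not called, with log2 fold changes from -0.51 to 1.72. The second gene that fell, Vldlr, has its match 200 bases before a RefSeq start and within an annotated exon. Of 9 members with ERSE letters, 8 were tested, of which 4 were higher, none lower and 4 not called, within a log2 fold change of -0.10 to 0.28. Over all genes tested, 48.7% were called, 24.9% higher and 23.8% lower. Whether genes with a match differ from other genes was not tested. Of the 9 members with ERSE letters, 7 are ER chaperones or folding enzymes, so their direction is not separate from that of this role. The element UPRE (TGACGTGG) was in no member window and in 0.563% of all windows, and it can overlap ERSE in the letters CCACG. The cAMP element (TGACGTCA) was in Ppp1r15a alone among the members and in 1.55% of all windows.

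Other genes of the ATF4 program, listed for context, also split. Of 23 measured, 13 were higher and 6 lower, with a median log2 fold change of 0.18. This is 82.6% called, beside 48.7% of all genes tested. Slc6a9, a glycine transporter, rose from 10.5 ± 1.71 to 27.6 ± 1.49 CPM (mean ± SD of 4 libraries each; log2 fold change 1.40). Gdf15, a stress-induced secreted factor, rose from 1.36 ± 0.0897 to 3.08 ± 0.389 CPM (log2 fold change 1.18, edgeR adjusted p = 6.72e-05), a level near the lower end of what was tested. Fgf21 had no row. Ddit4, which encodes the mTORC1 inhibitor REDD1, fell from 113 ± 9.15 to 29.6 ± 1.52 CPM (log2 fold change -1.93, edgeR adjusted p = 2.52e-17). Gpt2, a mitochondrial alanine transaminase, fell from 129 ± 8.17 to 51.9 ± 0.620 CPM (log2 fold change -1.31).

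Among 12 cytosolic tRNA synthetases, which charge tRNAs with amino acids and include known ATF4 targets, 7 were higher and none lower (0 lower also at an unadjusted p under 0.05). This is 58.3% called, beside 48.7% of all genes tested (24.9% higher and 23.8% lower). The count was not repeated under other scaling. Cars had a log2 fold change of 0.87 (SE 0.07) and Wars of 0.43 (SE 0.06). The median of the list was 0.19.

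Of the 7 sensors, mediator and phosphatase subunits, 1 was higher, 3 lower and 3 not called. This is 57.1% called, beside 48.7% of all genes tested. Their summed level was 647 to 685 CPM in siNTC and 560 to 562 CPM in siERK3. Most of that difference lay in Xbp1 (mean 290 CPM in siNTC, 229 CPM in siERK3) and Ppp1r15b (192 and 158 CPM), which are not sensors. Eif2ak3, the ER eIF2α kinase PERK, had 32.7, 29.9, 33.6 and 33.2 CPM in siNTC and 26.8, 25.5, 24.6 and 25.0 CPM in siERK3. All siERK3 libraries were below all siNTC libraries (log2 fold change -0.34, SE 0.07, edgeR adjusted p = 2.38e-04). Eif2ak3 shares 485 bases with Gm43292 on the other strand. Gm43292 had a log2 fold change of -0.41 and was not called, at a mean of 3.26 CPM in siNTC and 2.45 CPM in siERK3. Xbp1, the transcription factor activated by IRE1, had 277, 278, 315 and 289 CPM in siNTC and 223, 231, 231 and 232 CPM in siERK3. It was 1.26-fold lower, without overlap (log2 fold change -0.34, SE 0.05, edgeR adjusted p = 9.98e-06). Spliced and unspliced Xbp1 mRNA are not separated by these counts.

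The regulatory subunits of the eIF2α phosphatase moved apart. Ppp1r15b, the constitutive subunit, had 196, 189, 191 and 192 CPM in siNTC and 160, 157, 161 and 154 CPM in siERK3 (log2 fold change -0.28, SE 0.05, edgeR adjusted p = 3.35e-05). It overlaps Gm26616 on the other strand over 640 bases, and Gm26616 had a log2 fold change of -0.40. Ppp1r15a, which encodes the stress-induced subunit GADD34, had 25.7, 28.1, 30.7 and 28.0 CPM in siNTC and 32.6, 31.2, 33.8 and 32.1 CPM in siERK3. The groups did not overlap, although siNTC replicate 3 came close to the lowest siERK3 library (log2 fold change 0.21, SE 0.07, edgeR adjusted p = 0.0184). Its call was lost in 4 of 16 alternatives, with an adjusted p of up to 0.116.

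Atf6, Ern1 and Eif2ak4 were not called. Atf6 was at 68.6, 63.2, 59.2 and 62.5 CPM in siNTC and at 60.6, 59.6, 55.3 and 62.6 CPM in siERK3, with overlapping groups (log2 fold change -0.09). Ern1 ranged from 23.7 to 27.5 CPM in siNTC and from 23.0 to 24.8 CPM in siERK3. Eif2ak4 lay between 30.5 and 34.2 CPM in all 8 libraries.

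Of the other eIF2α kinases, Eif2ak2 rose and Eif2ak1 was not called. Eif2ak2, the kinase activated by double-stranded RNA and also an interferon-stimulated gene, had 37.0, 34.6, 29.3 and 32.3 CPM in siNTC and 155, 154, 152 and 165 CPM in siERK3 (log2 fold change 2.23, SE 0.06, edgeR adjusted p = 9.17e-19). Eif2ak1, the heme-regulated kinase, was at 51.5 ± 3.87 and 51.1 ± 2.13 CPM (SD, n = 4 each). Thus 1 of the 4 eIF2α kinase mRNAs was higher, 1 lower and 2 were not called. Eif2s1, which encodes eIF2α itself, rose from 40.4 ± 2.00 to 53.0 ± 3.79 CPM (log2 fold change 0.39), and the subunits of its exchange factor eIF2B split. Eif2b2 was higher, at a log2 fold change of 0.34, Eif2b1 and Eif2b3 were lower, at -0.24 and -0.30, and Eif2b4 (0.08) and Eif2b5 (-0.10) were not called. Over the 10 genes of this context list 4 were higher and 2 lower (60% called, beside 48.7% of all genes tested). Phosphorylation of eIF2α was not measured in these data.

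ER chaperones and folding enzymes were mainly higher, by small steps. Of 14 genes, 8 were higher, 2 lower and 4 not called (71.4% called, beside 48.7% of all genes tested). The median log2 fold change was 0.18, and the range was -0.22 to 0.56. The median kept its sign with upper-quartile factors (0.11) and with library sizes only (0.27). The summed level of the 14 genes was 2230 to 2323 CPM in siNTC and 2446 to 2541 CPM in siERK3. Without siNTC replicate 3, which was the lowest siNTC library for 7 of these genes and the highest for 4, the counts were 7 higher and 2 lower. Hspa5 and Pdia4 then lost their calls, and Canx was called lower.

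Sdf2l1, a partner of the ER chaperone BiP that keeps misfolded proteins soluble, had 13.1, 11.3, 12.5 and 14 CPM in siNTC and 18.3, 17.5, 18.2 and 20.9 CPM in siERK3. Its log2 fold change of 0.56 (SE 0.09, edgeR adjusted p = 3.07e-05) was the largest of this role, with no overlap between groups. Pdia3, the disulfide isomerase that works with calnexin and calreticulin, had 169, 173, 169 and 179 CPM in siNTC and 236, 231, 226 and 252 CPM in siERK3. The gap between the groups was wide against their spread (log2 fold change 0.46, SE 0.05, edgeR adjusted p = 9.30e-08). Dnajb11, a co-chaperone of BiP, had 45.3, 43.5, 46.5 and 45.9 CPM in siNTC and 60.9, 58.2, 62.9 and 56.2 CPM in siERK3 (log2 fold change 0.39, SE 0.06, edgeR adjusted p = 4.54e-06).

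Calr, which encodes the calcium-binding lectin chaperone calreticulin, had 451, 405, 514 and 473 CPM in siNTC and 578, 552, 571 and 540 CPM in siERK3. The siNTC libraries were widely spread, and all lay below the siERK3 libraries (log2 fold change 0.28, SE 0.06, edgeR adjusted p = 5.07e-04). Canx, its membrane-bound relative calnexin, was at 236, 228, 188 and 233 CPM in siNTC and at 213, 207, 204 and 222 CPM in siERK3 (log2 fold change -0.07, SE 0.06). Only siNTC replicate 3 was below the siERK3 libraries, and without it Canx was called lower, at a log2 fold change of -0.14.

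Hspa5, which encodes BiP, the main ER Hsp70 and the classic readout of the unfolded protein response, had 428, 426, 362 and 412 CPM in siNTC and 455, 441, 448 and 464 CPM in siERK3. The groups did not overlap, but the step was only 1.11-fold (log2 fold change 0.15, SE 0.06, edgeR adjusted p = 0.0284). The call was lost in 5 of 16 alternatives, with an adjusted p of up to 0.242. Those 5 were upper-quartile factors and the fits without siNTC replicate 3 or without siERK3 replicate 1, 3 or 4. Hsp90b1, the ER Hsp90, had 235, 254, 186 and 220 CPM in siNTC and 247, 223, 232 and 263 CPM in siERK3, and overlapped (log2 fold change 0.11, SE 0.07). It shares 9.75% of its 50-base stretches with other genes.

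Hyou1, Pdia6 and Dnajc3 each rose by a log2 fold change of 0.22 with no overlap. Hyou1, a large ER chaperone that exchanges nucleotide on BiP, went from 70 ± 5.38 to 81.7 ± 3.29 CPM (SD, n = 4 each). Pdia6, a disulfide isomerase, went from 122 ± 5.52 to 141 ± 3.25 CPM. Dnajc3, a BiP co-chaperone that also inhibits eIF2α kinases, went from 52.6 ± 4.85 to 61.2 ± 2.14 CPM, and with upper-quartile factors its adjusted p was 0.0547.

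Dnajb9 and Pdia4 were lower. Dnajb9, a co-chaperone that represses IRE1 and is a target of XBP1, had 71.9, 69.5, 62.2 and 81.4 CPM in siNTC and 59.5, 63.2, 55 and 66.8 CPM in siERK3. Its groups overlapped (log2 fold change -0.22, SE 0.07, edgeR adjusted p = 0.0148), and the call was lost with library sizes only, without siERK3 replicate 3 and without siNTC replicate 4. Pdia4, another disulfide isomerase, had 279, 273, 342 and 306 CPM in siNTC and 267, 267, 260 and 264 CPM in siERK3 (log2 fold change -0.18, SE 0.06, edgeR adjusted p = 0.0173), and its call was lost without siNTC replicate 3 and with library sizes only. Manf, a secreted ER stress protein, was at 98.3 ± 0.630 and 96.3 ± 3.72 CPM, and Creld2, another ER stress protein, at 15.6 ± 1.33 and 16.2 ± 1.06 CPM, both not called.

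**Figure D3:**
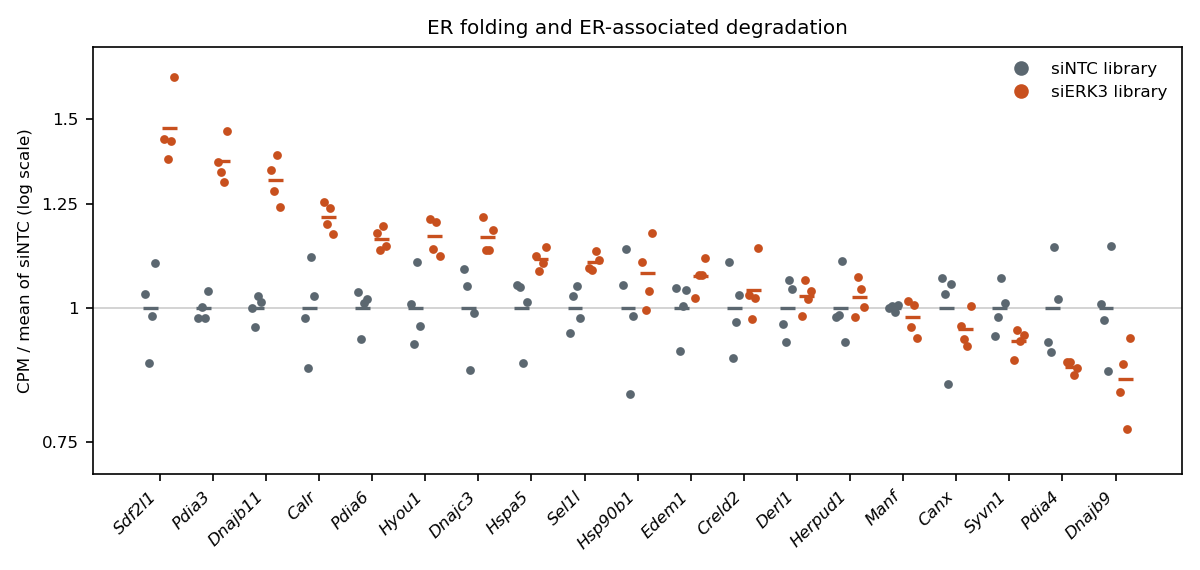
CPM of each library divided by the siNTC mean (log scale), for ER chaperones, folding enzymes and ER-associated degradation genes (points: libraries; short lines: group means; grey: siNTC; orange: siERK3). Sdf2l1, Pdia3 and Dnajb11 stand clear of their siNTC libraries, while Hsp90b1, Canx, Herpud1 and Derl1 overlap.

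Genes of ER-associated degradation had the smallest changes of the 5 roles, with a median size of 0.10 on the log2 scale, beside 0.25 over all genes. Of 5 measured, 1 was higher, none lower and 4 not called (edgeR; 0 lower also at an unadjusted p under 0.05, and 0 lower with DESeq2 and limma-voom), where 48.7% of all genes were called. Sel1l, the scaffold of the ubiquitin ligase complex that moves misfolded proteins out of the ER, had 161, 174, 178 and 166 CPM in siNTC and 185, 184, 192 and 188 CPM in siERK3. The groups did not overlap (log2 fold change 0.14, SE 0.05, edgeR adjusted p = 0.0229). Its call was lost in 4 of 16 alternatives, with an adjusted p of up to 0.250: upper-quartile factors, and the fits without siERK3 replicate 3, siNTC replicate 1 or siNTC replicate 4.

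Syvn1, the ubiquitin ligase HRD1 that SEL1L anchors, had 99.7, 104, 113 and 107 CPM in siNTC and 94.8, 101, 98.6 and 100 CPM in siERK3 (log2 fold change -0.10, SE 0.05, edgeR adjusted p = 0.114). It overlapped slightly, and with upper-quartile factors it was called lower. Derl1, a membrane channel component, had 181, 174, 199 and 195 CPM in siNTC and 184, 199, 191 and 194 CPM in siERK3 (log2 fold change 0.04). Herpud1, an early ER stress target that joins the ligase complex, had 57.9, 58.1, 65.2 and 54.8 CPM in siNTC and 57.9, 63.0, 61.5 and 59.1 CPM in siERK3 (log2 fold change 0.03). Edem1, a lectin that hands glycoproteins to degradation, was at 174 ± 11.0 and 187 ± 6.74 CPM (mean ± SD of 4 libraries each; log2 fold change 0.10, edgeR adjusted p = 0.144).

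Wider lists of the same machinery were mixed. Of 31 other genes of ER translocation and folding, 13 were higher and 6 lower, with a median log2 fold change of 0.13. This is 61.3% called, beside 48.7% of all genes tested. The pair with the largest increases was Fkbp11, a peptidyl-prolyl isomerase, at 0.90 but only 1.43 to 2.68 mean CPM, and Spcs3, a signal peptidase subunit, at 0.49. Ero1l, the oxidase that supplies disulfides, fell from 347 ± 33.1 to 216 ± 16.3 CPM (mean ± SD of 4 libraries each; log2 fold change -0.68, edgeR adjusted p = 6.71e-09), and Ssr1, a translocon subunit, had a log2 fold change of -0.54. Of 21 other degradation genes, 8 were higher and 2 lower (47.6% called, near the share of all genes). Here the ubiquitin ligase Rnf139 had a log2 fold change of 0.74 and the lipid droplet and ER protein Aup1 of 0.52, against -0.64 for the ubiquitin-conjugating enzyme Ube2g2 and -0.53 for the ligase Rnf5.

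Of 7 genes of ATF6 processing and related factors, 1 was higher and none lower (0 lower also at an unadjusted p under 0.05). The higher gene was Atf6b, the paralog of Atf6, at a log2 fold change of 0.30. In the cytosol, 4 of 10 heat shock genes were called higher and none lower (0 lower also at an unadjusted p under 0.05), led by Hsph1 (0.63) and Dnaja1 (0.61). Over all genes tested, 48.7% were called. Hsp90ab1, the most abundant of the 10, was lower in siERK3 without overlap of the groups, but was not called (-0.10). The list summed to 1841 to 1962 CPM in siNTC and 1832 to 1888 CPM in siERK3. Mitochondrial chaperones and proteases had 2 higher and 4 lower of 7, with Trap1 at 0.22, Hspa9 at 0.16, Clpx at -0.34 and Hspd1 at -0.31.

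**Figure D4:**
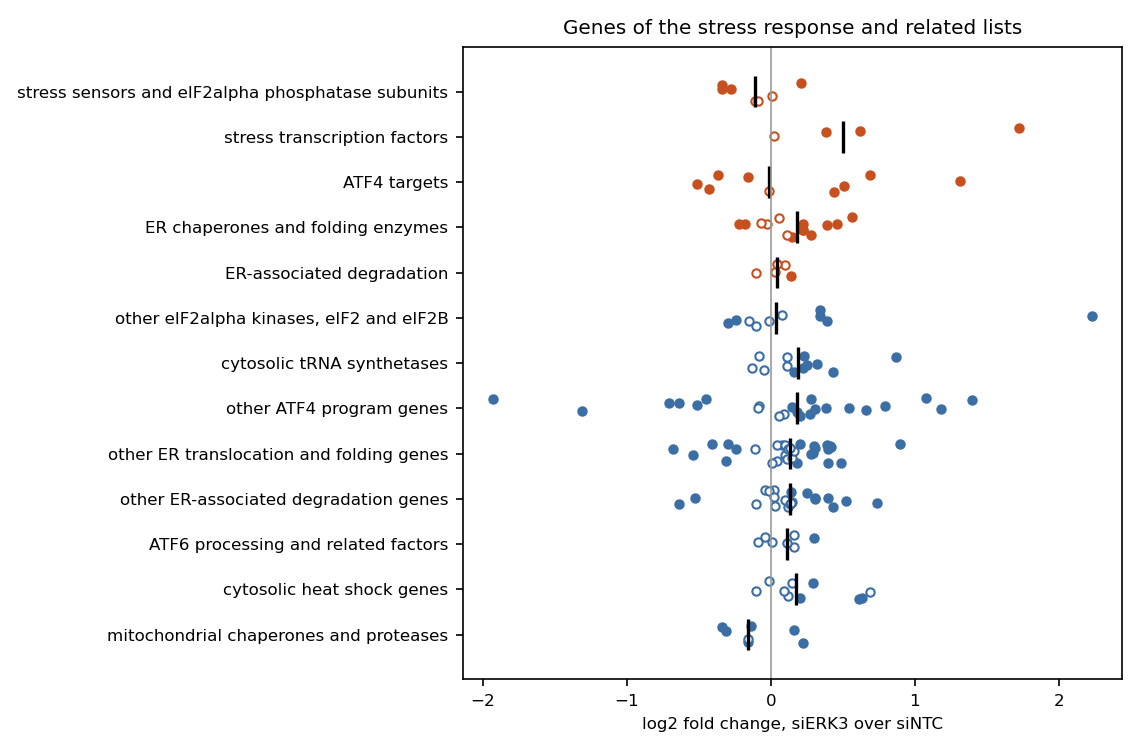
Change of each measured gene by list, as the log2 ratio of siERK3 to siNTC (orange: stress response members; blue: context lists; filled: adjusted p under 0.05; black lines: medians; vertical scatter within a list has no meaning). Eif2ak2 (2.23) and Ddit4 (-1.93) lie farthest from 0, and the other ATF4 program genes run from -1.93 to 1.40.

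Levels were compared between genes as CPM per kb of annotated exon. In siNTC, the most abundant members were Calr, at 160 ± 15.7, Pdia4, at 125 ± 13.1, and Hspa5, at 96.3 ± 7.29 CPM per kb (SD, n = 4). The ranges of Calr (141 to 179) and Pdia4 (114 to 142) overlapped slightly in siNTC, and those of Hspa5 (85.6 to 101), Psat1 (83.1 to 102) and Xbp1 (85.2 to 96.9) overlapped. Calr, Pdia4 and Hspa5 were the top 3 in siERK3 too. Psat1 moved from rank 4 to 8 of 39, Pdia3 from 11 to 4, Trib3 from 12 to 7 and Atf4 from 10 to 5. At the other end, Slc7a11 was lowest in both groups, at 0.541 ± 0.0421 and 1.34 ± 0.202 CPM per kb, and Atf3 was next lowest in siNTC at 2.01 ± 0.297. That order depends on the annotated exon length of Slc7a11, 13922 bases. In CPM, Atf3 was below Slc7a11, at a mean of 4.33 against 7.53 in siNTC and 14.3 against 18.7 in siERK3. By either measure, these members with the largest fold changes were among the least abundant in siNTC.

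**Figure D5:**
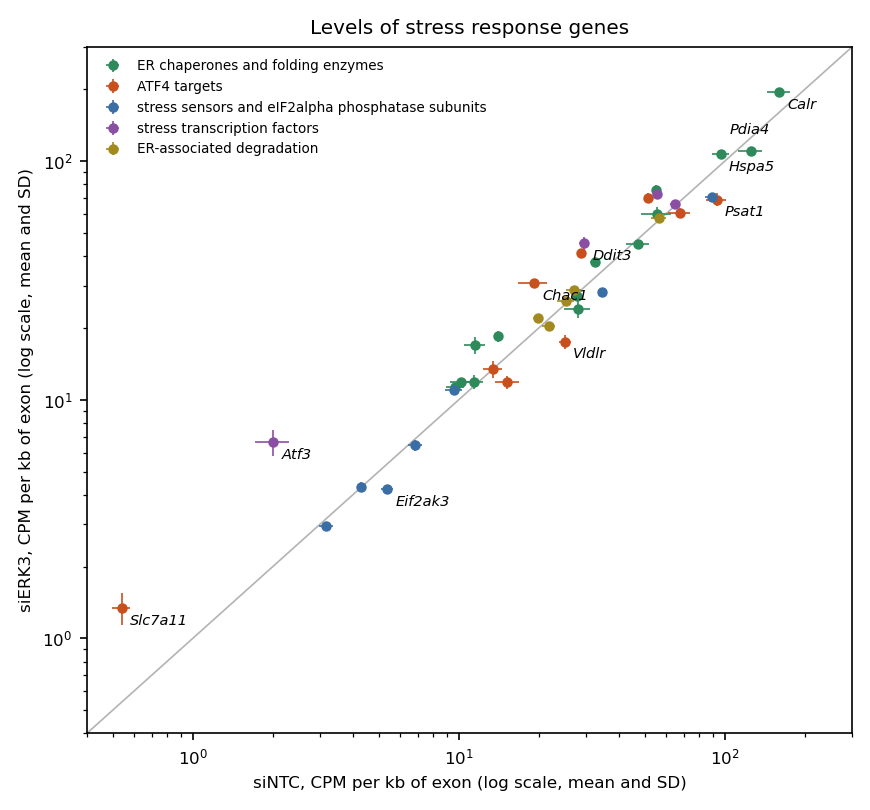
Mean level of the 39 members in siNTC (horizontal) and siERK3 (vertical), in CPM per kb of annotated exon, both on log scales (bars: SD over 4 libraries; line: equal levels). Slc7a11 and Atf3, at the low end, lie farthest above the line, and Calr is the most abundant in both groups.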

How the data were processed

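The authors deposited a table of raw read counts per gene. The submitters' processing notes name bcl2fastq, FastQC, Bowtie2, edgeR and the build mm10; the counting tool is not given in the sources used here, and the library kit does not keep strand. Their own fold changes and p-values, also deposited, were not used. The members and the gene lists were chosen with earlier results of these data known. Counts were tested with edgeR 4.0.16 (quasi-likelihood; genes with at least 10 counts by filterByExpr and 15 in total; TMM; siNTC as reference; Benjamini-Hochberg over 17972 genes). Totals per library were 9854522 to 9943572, and the common biological coefficient of variation was 6.08%. All members were to be named, with every library given for the 4 largest called genes and the most abundant uncalled gene of each role, plus the 2 largest called genes in each direction of each context list and 6 chosen genes. Others were added after their values were seen. Alternatives were other scaling, DESeq2 1.42.0, limma-voom 3.58.1, other filters, a replicate block and leaving out each library. Reads shared between genes were estimated from 50-base stretches of GENCODE exons. The smallest p of an exact permutation test of 4 against 4 is 0.0286. The edgeR steps were tested on simulated data, in which far fewer genes changed than were called here. That test therefore does not check the scaling.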

Additional observations from a re-analysis of the deposited data

Results flagged for a closer look

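Within the groups of 4 libraries, 3 of 80 sets of member or Mapk6 values held 1 library far from the other 3 (Dixon's test at the 95% level), where chance gives about 4. Xbp1 was at 223 CPM in siERK3 replicate 1 and at 231 to 232 CPM in the others. Atf4 was at 137 CPM in siNTC replicate 3, against 128 to 129 CPM. Canx was at 188 CPM in siNTC replicate 3, against 228 to 236 CPM. siNTC replicate 3 was the lowest or highest library of its group for 28 of 39 members (71.8%; 58.2% of all genes), and siNTC replicate 4 for 9 (23.1%; 45.3% of all genes).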

How the results depend on the processing

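Of 26 called members, 19 kept their call in all 16 alternatives, 7 lost it in at least 1 (Ppp1r15a, Asns, Hspa5, Dnajb9, Dnajc3, Pdia4 and Sel1l) and 0 reversed. Of 13 uncalled members, 5 were called in at least 1. With upper-quartile factors, 0 degradation genes were higher and 1 lower. With library sizes only, 2 were higher, and 0 chaperones were lower. Leaving out 1 library gave 0 to 1 higher degradation genes and 1 to 2 lower chaperones. The fit with a replicate block gave 17 higher and 9 lower members and changed no member's call. Deviations of log2 CPM from the group mean were correlated between siNTC and siERK3 libraries. The correlations were -0.0107 to 0.095 for same-numbered libraries and -0.138 to 0.084 for differently numbered ones. These values show no pairing by number, but so few of them cannot exclude it. Changes of sign occurred only among uncalled members, in fits where they were uncalled too. With upper-quartile factors the log2 fold change was -0.0565 for Eif2ak4, -0.05 for Atf5, -0.0143 for Creld2, -0.0369 for Herpud1 and -0.0345 for Derl1. With library sizes only it was 0.0809 for Sesn2, 0.0574 for Manf and 0.021 for Canx. Leaving out 1 library gave -0.0145 to 0.0418 for Eif2ak4, -0.00954 to 0.0428 for Atf5, -0.0432 to 0.0486 for Sesn2 and -0.000737 to 0.0846 for Herpud1. Another scaling shifts every gene by about the same amount, and for the other changes the cause was not tested. Depth limits Slc7a11 and Atf3, with 33 to 213 counts per library.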
